A study of Mus musculus with 768 samples.

Results

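The collagen genes were all genes of the count table whose mouse symbol reads Col, a type number, a and a chain number, and 44 of the 25700 genes in the table met that rule. Collagens are secreted or membrane proteins built from alpha chains that wind into a triple helix, and each gene codes for 1 alpha chain of 1 collagen type. In peripheral nerve, Schwann cells (SCs) lay down a basal lamina that holds type IV collagen beside laminins, and the endoneurium around it holds fibrils of types I, III and V. Myelinating SCs (mSCs) each wrap 1 axon, while non-myelinating Remak SCs (nm(R)SCs) ensheath bundles of thin axons.

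The cells were single SCs from sciatic nerves of mice at postnatal day 60 on the C57BL/6J background, which carried P0Cre, an eYFP reporter that Cre switches on, and DsRed under the beta-actin promoter. Sorting was for eYFP only, so the cells were those with a history of P0 promoter activity that survived dissociation, and no other genotype or treatment was included. Each of 2 plates held 384 cells from its own pool of male and female mice, and the Smart-Seq2 libraries carry no molecular identifiers, so reads were counted and not molecules. The plates held 74280540 and 209404659 reads. The cells in which at least 1500 genes were detected numbered 340 in plate 1 and 334 in plate 2, with medians of 158689 and 452484 reads and of 3442 and 2295 detected genes.

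No deposited annotation of the cells was used, so the cells were clustered again with the collagen genes left out, and clusters were named from marker lists. Of the 4 clusters, clusters 1 and 2 were mSC-like and clusters 0 and 3 were nm(R)SC-like, written nmSC-like. The 11 mSC markers summed to 69389 and 66376 counts per 1000000 reads (CPM) in the mSC-like cells of plates 1 and 2 and to 6900 and 7498 CPM in the nmSC-like cells. Pmp22 was the main part of that sum, at 56368 and 53022 CPM in mSC-like cells. The 9 nm(R)SC markers summed to 207 and 365 CPM in mSC-like cells and to 3689 and 2704 CPM in nmSC-like cells, although Gap43 of that list was at or below 1.73 CPM in both. Ednrb of that list was at 125 and 296 CPM in mSC-like and at 416 and 278 CPM in nmSC-like cells. In plate 2 it thus went the other way and made up most of the mSC-like sum. Mki67+ Top2a+ cells, in which these genes of dividing cells each had at least 5 reads, formed a separate group: 14 such cells were found in plate 1, all in cluster 3, and 0 in plate 2. They were taken out of the classes, which then held 152 and 80 mSC-like cells and 174 and 254 nmSC-like cells. Of markers of other nerve cells, the fibroblast markers were low in the sums of the classes. Of the 9, 4 to 6 had a read in a class and plate, with a sum of 22 to 45.3 CPM that was mainly Dcn. By cluster, Dcn was highest in cluster 3, at 66.4 and 219 CPM. Pdgfra was at 0.17 CPM or less, and Clec3b and Osr2 were at 0. In the classes the 6 perineurial markers summed to 211 to 339 CPM, mainly Itgb4 with Msln at 0. The 6 endothelial markers summed to 0.0336 to 34.1 CPM, in mSC-like cells mainly Kdr, with Cdh5 at 0. The 7 immune markers summed to 9.14 to 18.5 CPM, mainly Csf1r, with Adgre1 and Cd52 at 0. In plates 1 and 2, 26 of 152 (17.1%) and 6 of 80 (7.5%) mSC-like cells held 5 or more reads of Pdgfra, Pdgfrb, Pecam1 or Ptprc. In nmSC-like cells these were 4 of 174 (2.30%) and 4 of 254 (1.57%). Cluster 3 was the weakest in its name, with 4 of the 9 nm(R)SC markers at 50 CPM or more.

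Collagen genes took 0.370% and 0.232% of all reads in the mSC-like cells of plates 1 and 2, 0.655% and 0.312% in the nmSC-like cells, and 0.655% in the 14 Mki67+ Top2a+ cells. The share was higher in nmSC-like than in mSC-like cells in both plates and higher in plate 1 than in plate 2 in both classes. After each cell was thinned to 100000 reads, the median mSC-like cell held 5 or more reads of 7 collagen genes in plate 1 and of 3 in plate 2, and the median nmSC-like cell of 9.5 and of 4. Plate 2 thus showed fewer collagen genes per cell at equal reads, and it was also the plate with fewer detected genes. Most cells of both classes had some collagen: 1 of 107 and 3 of 77 thinned mSC-like cells, and 0 of 104 and 2 of 236 nmSC-like cells, reached 5 reads of none of the 44 genes.

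Of the 44 genes, 17 reached 10 CPM in both plates of the mSC-like class and 18 in both plates of the nmSC-like class, and 14 did so in both classes. The 14 were Col1a1, Col1a2, Col3a1, Col4a1, Col4a2, Col5a1, Col5a2, Col5a3, Col11a1, Col14a1, Col16a1, Col18a1, Col27a1 and Col28a1. Col9a3, Col12a1 and Col23a1 reached that level in both plates of the mSC-like class alone, and Col4a4, Col6a1, Col6a3 and Col15a1 in both plates of the nmSC-like class alone. These counts were not made over all genes of the table. At the other end, Col6a4, Col6a5, Col6a6, Col10a1, Col13a1, Col17a1 and Col22a1 had no read in any cell of the table. Fibril-forming collagens made up most collagen reads in every group, with 63.1% and 65.5% in mSC-like cells, 77.1% and 67.7% in nmSC-like cells and 84.5% in Mki67+ Top2a+ cells. Type IV chains of the basement membrane made up 21.2% and 16.8% of collagen reads in mSC-like cells against 8.41% and 11.6% in nmSC-like cells.

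**Figure D1:**
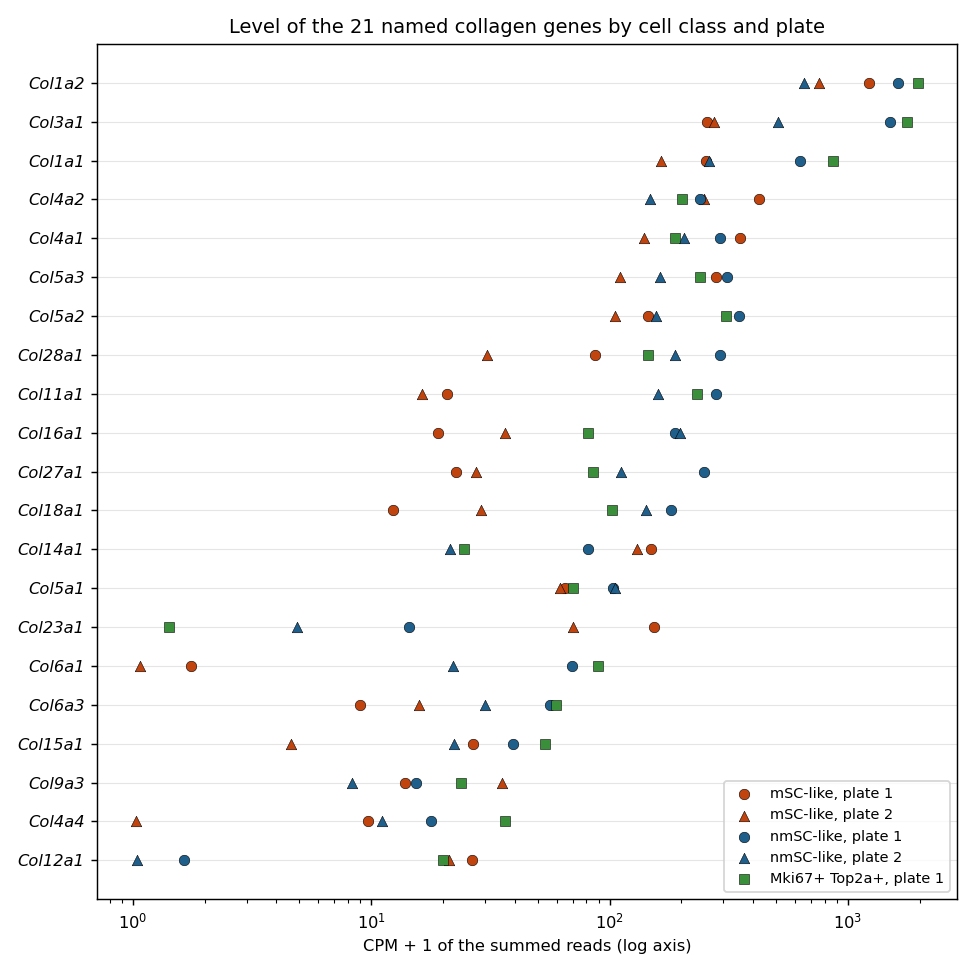
Level of the 21 named collagen genes in the summed reads of each class and plate, as CPM + 1 on a log axis; circles are plate 1, triangles plate 2 and squares the Mki67+ Top2a+ cells of plate 1. Col1a2 is at the top in all 5 groups, and the red (mSC-like) and blue (nmSC-like) points lie apart for Col11a1, Col16a1 and Col23a1 and mixed for Col1a2 and Col4a1.

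The classes were compared on the reads summed per class and plate, with the plate as a block, by edgeR's quasi-likelihood test with Benjamini-Hochberg adjustment over all genes tested. The log2 ratio is mSC-like over nmSC-like throughout, so a negative value is higher in nmSC-like cells. Of 13247 genes tested, 232 had an adjusted p under 0.05, which is 1.75% of them, and 116 of these (0.876%) were higher in mSC-like and 116 (0.876%) in nmSC-like cells. Low counts left 31 of the 44 collagen genes in the test, of which 3 passed, or 9.68%: Col11a1 and Col16a1 were higher in nmSC-like cells and Col23a1 in mSC-like cells. An unadjusted p under 0.05 was reached by 18 of the 31, and by 1581 (11.9%) of all genes tested. The collagen genes were tested in the main classes, built from all other genes. Each other gene was tested in split classes, built from the part of a random split of the genes that lacked it. The split classes matched the main ones in 88.6% and 93.9% of 674 cells, so the shares do not rest on the same cells. The median log2 ratio of the 31 was -0.58, with 17 below 0 and 14 above, against -0.06 over all genes tested. In 27 of the 31 the ratio had the same sign in both plates. That count was not made over all genes tested, so it cannot be read as particular to collagen genes.

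Col11a1 (ENSMUSG00000027966), a chain of type XI collagen that is found within fibrils of other types, was at 280 and 159 CPM in the nmSC-like cells of plates 1 and 2 and at 19.8 and 15.4 CPM in mSC-like cells. Its log2 ratio was -3.45 ± 0.405 (SE, edgeR adjusted p = 0.0202). In the fit it passed under all 13 alternatives run. At 100000 reads, 51.0% (53 of 104) and 27.1% (64 of 236) of nmSC-like cells held 5 or more of its reads, against 4.67% (5 of 107) and 2.6% (2 of 77) of mSC-like cells, with exact binomial 95% intervals of 41.0 to 60.9% and 21.6 to 33.3% against 1.53 to 10.6% and 0.316 to 9.07%. The intervals cover error in counting cells only, since the cells of a plate come from 1 pool of mice and are not replicates. What mSC-like cells held of it was uneven, with 52.2% of the reads in plate 1 and 81.3% in plate 2 from 1 cell. Within the nmSC-like class it was at 335 and 168 CPM in cluster 0 (led by Apoe and Scn7a) and at 63.8 and 28.8 CPM in cluster 3 (led by Ednrb, with Ccnd1 among its leading genes).

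Col16a1 (ENSMUSG00000040690) codes for a collagen that associates with fibrils. It was at 187 and 197 CPM in nmSC-like cells and at 18.1 and 35.4 CPM in mSC-like cells, with a log2 ratio of -2.77 ± 0.431 (edgeR adjusted p = 0.0423). It was in 58.7% and 32.2% of nmSC-like cells and in 8.41% and 6.49% of mSC-like cells. A single mSC-like cell held 51.7% of the mSC-like reads in plate 1 and another 53.4% in plate 2. The adjusted p was 0.110 when the plates were clustered without integration and 0.0858 without the replicate block.

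Col23a1 (ENSMUSG00000063564) codes for a transmembrane collagen whose outer part can be shed. It was at 153 and 69.3 CPM in mSC-like cells and at 13.4 and 3.88 CPM in nmSC-like cells, and 0 of 12 thinned Mki67+ Top2a+ cells held 5 reads of it, which allows a share of up to 25% by the limit of 3 cells and of up to 26.5% by the exact binomial 95% interval. The log2 ratio was 3.98 ± 0.552 (edgeR adjusted p = 0.0305). Its share of cells was 32.7% and 9.09% in the mSC-like class and 3.85% and 0.847% in the nmSC-like class. Its level differed within the mSC-like class, where cluster 2, led by Mfap5 and Ogn, had 270 and 264 CPM and cluster 1, led by Cuedc2, Emid1 and Pllp, had 16.7 and 0.476 CPM. In plate 2 a single cell held 51.9% of the reads of cluster 2, which were 51.6% of those of the mSC-like class, and another cell 72.7% of the nmSC-like reads. With the top cell of each gene left out of each sum the gene still passed. Cluster 2 held 81 cells of plate 1 and 21 of plate 2, so the mSC-like classes of the plates differ in their makeup. Pdgfrb, a pericyte marker, was at 41.7 and 18 CPM in mSC-like and at 3.53 and 13.4 CPM in nmSC-like cells. By cluster it was at 40.6 and 46.0 CPM in cluster 2 and at 43.1 and 8.15 CPM in cluster 1, and it had 5 or more reads in 22.2% and 9.52% of the cells of cluster 2 and in 11.3% and 6.78% of those of cluster 1. In cluster 2, of the 43 and 6 cells with 5 reads of Col23a1, 14 and 2 also had Pdgfrb. The 7 pericyte and smooth muscle markers summed to 50.3 and 18.1 CPM in mSC-like cells and to 4.62 and 13.7 CPM in nmSC-like cells, with Rgs5, Abcc9 and Notch3 at 0 in mSC-like cells. Kdr, an endothelial marker, was at 34 and 10.7 CPM in mSC-like cells, where Cdh5 was at 0. With the cells that held 5 reads of Pdgfra, Pdgfrb, Pecam1 or Ptprc left out, the log2 ratio was 2.98 ± 0.736 (edgeR adjusted p = 0.0736), and without the replicate block the adjusted p was 0.0620.

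**Figure D2:**
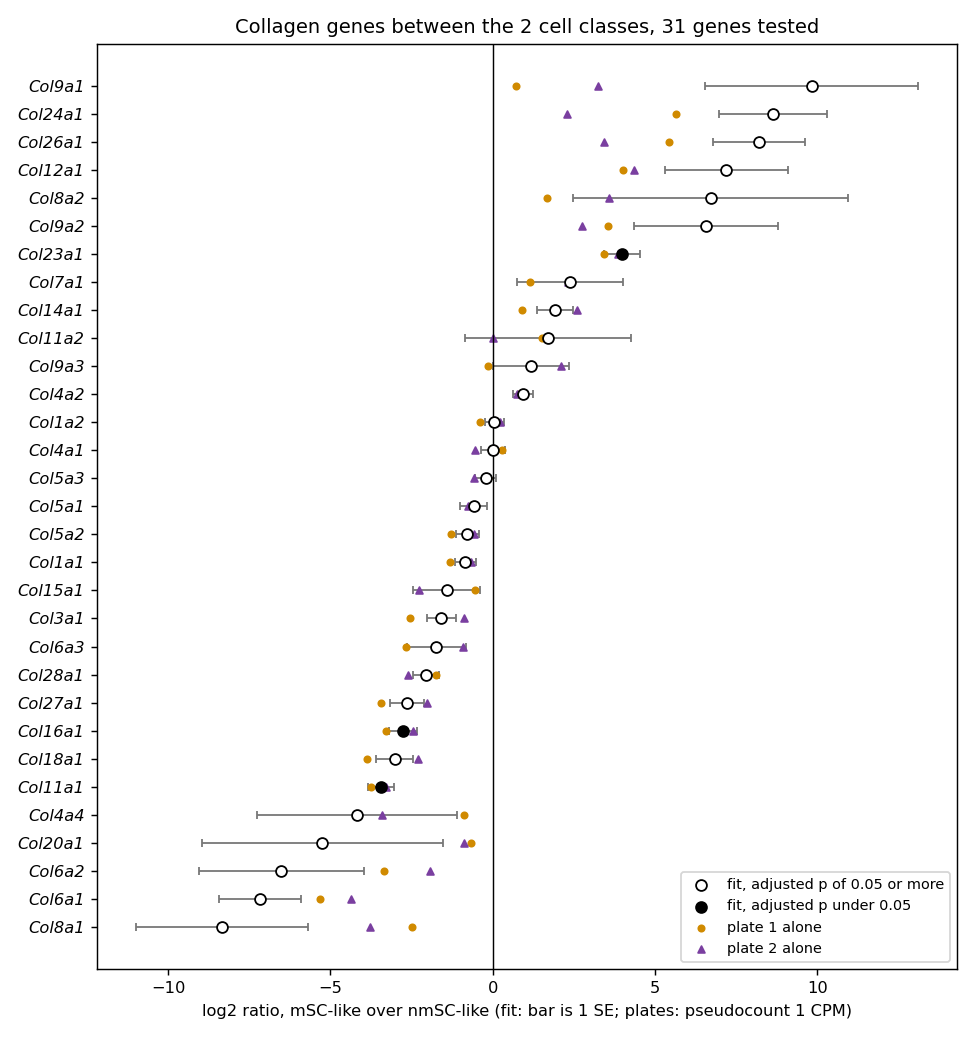
Log2 ratio of mSC-like over nmSC-like cells for the 31 collagen genes tested; large circles are the fit with a bar of 1 SE, filled where the adjusted p is under 0.05, and small points are each plate alone with a pseudocount of 1 CPM. The 3 filled points are Col11a1 at -3.45, Col16a1 at -2.77 and Col23a1 at 3.98, each with both plates on the same side of 0, while Col1a2 and Col4a1 have the plates on opposite sides.

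The sequence before the start site is printed for the 3 genes that passed, since their reads differ between the classes. It is the 150 bases upstream of the RefSeq start in GRCm38.p6, all on the + strand: chr3:114030390-114030539 for Col11a1, chr4:130047690-130047839 for Col16a1 and chr11:51289770-51289919 for Col23a1. Capitals mark every match, on either strand, to CCAAT, to GGGCGG (a GC box), to TATAAA or to ACAAAG, none of which overlap here.
Col11a1: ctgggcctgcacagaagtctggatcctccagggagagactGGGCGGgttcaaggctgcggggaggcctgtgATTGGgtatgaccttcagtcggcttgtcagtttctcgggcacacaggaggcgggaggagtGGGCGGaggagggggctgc
Col16a1: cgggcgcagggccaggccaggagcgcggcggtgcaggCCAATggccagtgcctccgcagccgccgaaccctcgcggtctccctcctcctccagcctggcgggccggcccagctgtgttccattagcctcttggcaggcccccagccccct
Col23a1: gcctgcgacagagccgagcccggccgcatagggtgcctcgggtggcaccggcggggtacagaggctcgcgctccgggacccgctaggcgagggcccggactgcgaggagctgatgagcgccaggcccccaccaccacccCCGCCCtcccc

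Col11a1 has 2 GC boxes and a CCAAT on the opposite strand, Col16a1 has a CCAAT 113 bases upstream of the start, and Col23a1 has 1 GC box on the opposite strand. The Col16a1 window overlaps an exon of Gm12963, an antisense gene that starts on the opposite strand. GGGCGG was in 28.6% of all 32851 upstream windows of this length and in 19 of the 38 windows of the 35 collagen genes in the promoter table, whose median GC content was 62.7% against 54.0% over all windows. CCAAT was in 24.5% of all windows and in 8 of the 38, TATAAA in 7.57% and in 4, and ACAAAG in 9.88% and in 0.

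Among the other fibril-forming chains, Col1a2 had the highest CPM of all collagen genes in every group, at 1229 and 757 CPM in mSC-like and 1622 and 652 CPM in nmSC-like cells. Its log2 ratio was 0.05 ± 0.293, with -0.40 in plate 1 and 0.22 in plate 2. Col1a1, the partner chain in type I collagen, was at 253 and 164 CPM against 626 and 259 CPM (log2 ratio -0.84 ± 0.318, edgeR adjusted p = 0.374). Col3a1, the single chain of type III collagen, was at 256 and 273 CPM in mSC-like and at 1506 and 510 CPM in nmSC-like cells. Its log2 ratio was -1.58 ± 0.449 (adjusted p = 0.207), and it was in 38.3% and 27.3% of mSC-like and 82.7% and 53.0% of nmSC-like cells. Per length, as CPM per kilobase of exon (RPKM), Col1a2 stood first in mSC-like cells at 98.9 and 60.9 RPKM. In nmSC-like cells it was at 130 and 52.5 RPKM beside 153 and 51.9 RPKM for Col3a1, so the order of the top pair differed between the plates.

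The 3 type V chains, which limit fibril diameter, were nearer to each other in the classes. Col5a1 was at 63.9 and 60.9 CPM in mSC-like against 102 and 105 CPM in nmSC-like cells, and Col5a2 at 145 and 105 CPM against 350 and 155 CPM. Col5a3 was at 278 and 109 CPM against 310 and 162 CPM, with a log2 ratio of -0.22 ± 0.327. The edgeR adjusted p of Col5a1, Col5a2 and Col5a3 was 0.712, 0.463 and 0.919. Col5a3 was uneven among mSC-like cells, with 423 and 315 CPM in cluster 2 and 110 and 36.3 CPM in cluster 1. Col27a1, a fibrillar collagen, was at 21.8 and 26.5 CPM in mSC-like and 249 and 111 CPM in nmSC-like cells (log2 ratio -2.64 ± 0.511, edgeR adjusted p = 0.0782), and it passed under 7 of the 13 alternatives. It was in 62.5% and 30.1% of nmSC-like cells and in 10.3% and 9.09% of mSC-like cells.

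Type IV collagen, the network-former of basement membranes, was read mainly from Col4a1 and Col4a2. Col4a1 was at 351 and 139 CPM in mSC-like and 288 and 203 CPM in nmSC-like cells (log2 ratio 0.01 ± 0.361), and the plates went opposite ways. Col4a2 was at 424 and 248 CPM against 239 and 147 CPM (log2 ratio 0.94 ± 0.304, edgeR adjusted p = 0.285). Their start sites lie head to head on chromosome 8 of GRCm38.p6, at 11312826 on the - strand for Col4a1 and at 11312805 on the + strand for Col4a2. Their first exons share 22 bases on opposite strands, of 7464 exon bases of Col4a1 and 6619 of Col4a2. The strand setting of the counting is not given in the sources used here, so reads that overlap those 22 bases cannot be assigned with certainty. Both were highest in cluster 2, at 520 and 317 CPM for Col4a1 and 620 and 632 CPM for Col4a2, against 154 and 76.1 CPM and 196 and 112 CPM in cluster 1. In cluster 0 they were at 329 and 211 CPM and at 244 and 148 CPM. In plate 2 a single cell held 45.3% of the Col4a1 reads of cluster 2, and 1 cell held 31.3% of its Col4a2 reads. Col4a4, a chain of the network of specialised basement membranes, was at 8.70 and 0.03 CPM in mSC-like and 16.8 and 10.1 CPM in nmSC-like cells. A single cell held 55.0% of its nmSC-like reads in plate 1, and 4 of 236 thinned nmSC-like cells of plate 2 held 5 or more. Col4a3, Col4a5 and Col4a6 had too few reads to be tested.

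Other types had higher values in nmSC-like cells without passing the test. Col18a1, a basement membrane multiplexin whose end piece is endostatin, was at 11.3 and 28 CPM in mSC-like and 180 and 142 CPM in nmSC-like cells (log2 ratio -3.02 ± 0.565, edgeR adjusted p = 0.0713). Col28a1, a collagen known from the basement membranes of peripheral glia, was at 85.9 and 29.6 CPM against 288 and 187 CPM (log2 ratio -2.06 ± 0.407, adjusted p = 0.0817). Of the 13 alternatives, Col18a1 passed under 8 and Col28a1 under 6. Col6a1, a chain of the beaded filaments of type VI collagen, was nearly lacking in mSC-like cells at 0.747 and 0.0669 CPM and was at 68.9 and 21.1 CPM in nmSC-like cells (adjusted p = 0.0591). It passed under 9 of the 13 alternatives, and its log2 ratio went from -7.18 to 0.25 when cells with 1000 or more genes were used. In plate 2, 57.3% of its nmSC-like reads came from 1 cell, and its cluster levels were 64.4 and 3.94 CPM in cluster 0 and 86.4 and 255 CPM in cluster 3. Cluster 3 in plate 2 was 29 cells with a median of 26474 reads, and 1 cell held 69.4% of their Col6a1 reads. Dcn, the fibroblast marker, was at 66.4 and 219 CPM in cluster 3 and at 37.0 and 0.101 CPM in cluster 0. Pdgfra was at 0.137 and 0 CPM in cluster 3. Whether the Col6a1 level there is related to Dcn was not tested. Col6a3 was at 7.95 and 14.8 CPM against 55.4 and 29.1 CPM, and 66.9% and 99.1% of its mSC-like reads came from 1 cell of each plate. Col15a1, a multiplexin, was at 25.8 and 3.61 CPM against 38.3 and 21.3 CPM.

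Higher in mSC-like cells by value, again without passing, were Col14a1 and Col12a1, which both associate with fibrils. Col14a1 was at 149 and 129 CPM in mSC-like and 79.9 and 20.4 CPM in nmSC-like cells (log2 ratio 1.92 ± 0.547, edgeR adjusted p = 0.209). Its level was 221 and 258 CPM in cluster 2 and 65.3 and 83.3 CPM in cluster 1. Col12a1 was at 25.4 and 20.2 CPM against 0.640 and 0.0404 CPM (adjusted p = 0.172), but in plate 2 a single cell held 94.0% of the mSC-like reads. Col9a3, whose exons share bases with Tcfl5 on the other strand, was at 12.9 and 34.4 CPM against 14.4 and 7.27 CPM.

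The 10 tested genes below the level for naming were Col6a2, Col7a1, Col8a1, Col8a2, Col9a1, Col9a2, Col11a2, Col20a1, Col24a1 and Col26a1, and 6 genes with reads were too low to test, Col2a1, Col4a3, Col4a5, Col4a6, Col19a1 and Col25a1. Col24a1, a fibrillar collagen, and Col26a1 are described because of their values in plate 1. Col24a1 was at 69.4 CPM in the mSC-like cells of plate 1 and 3.85 CPM in plate 2, where 96.5% of the reads came from 1 cell. In nmSC-like cells it was at 0.390 CPM in plate 1 and had no read in plate 2, where 3 reads would be 0.0202 CPM (edgeR adjusted p = 0.0770). Col26a1 was at 56.9 and 9.89 CPM in mSC-like and 0.334 and 0.0202 CPM in nmSC-like cells (adjusted p = 0.0591). Of the 13 alternatives, Col24a1 passed under 8 and Col26a1 under 10. In plate 1 both were highest in cluster 2, at 129 and 104 CPM, against 0.323 and 1.81 CPM in cluster 1. In plate 2 Col26a1 was at 0.384 CPM in cluster 2 and 13.2 CPM in cluster 1, so its place differed between the plates.

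**Figure D3:**
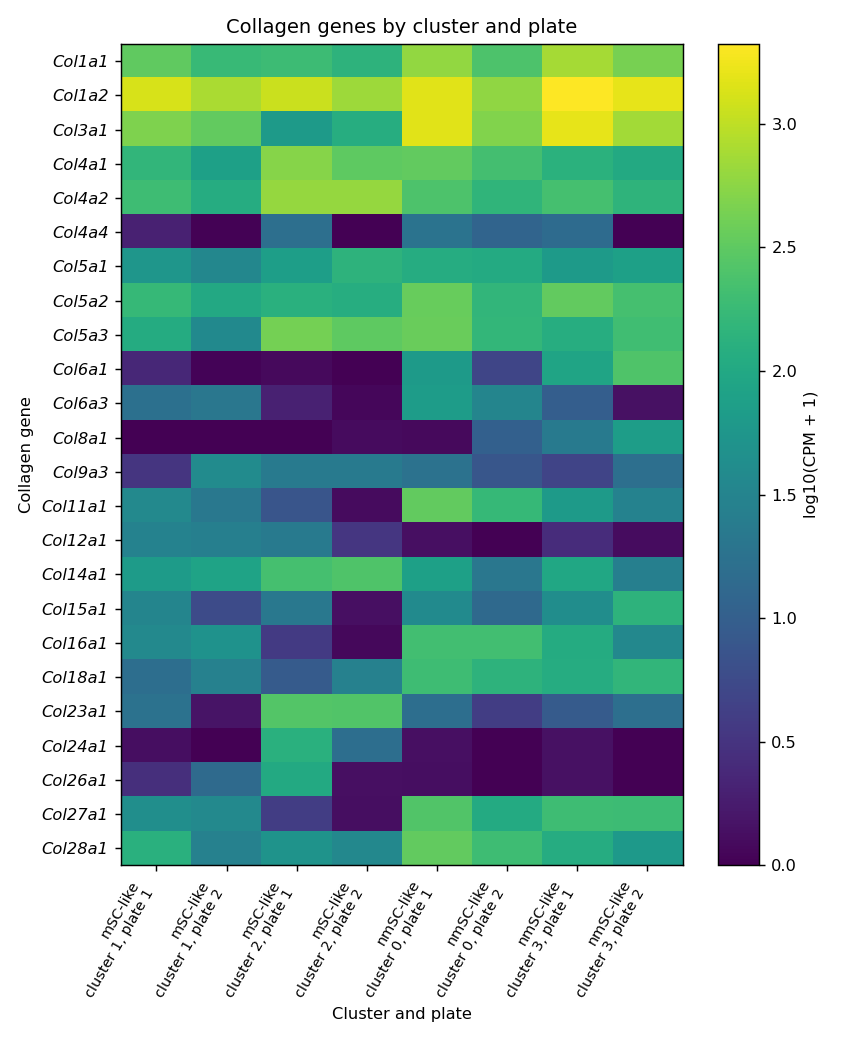
Level of the named collagen genes and of Col24a1, Col26a1 and Col8a1 in each of the 4 clusters and 2 plates, as log10(CPM + 1). Within the mSC-like cells, Col23a1 is bright in cluster 2 of both plates (270 and 264 CPM) and dark in cluster 1, and within the nmSC-like cells Col11a1 is brighter in cluster 0 (335 and 168 CPM) than in cluster 3.

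**Figure D4:**
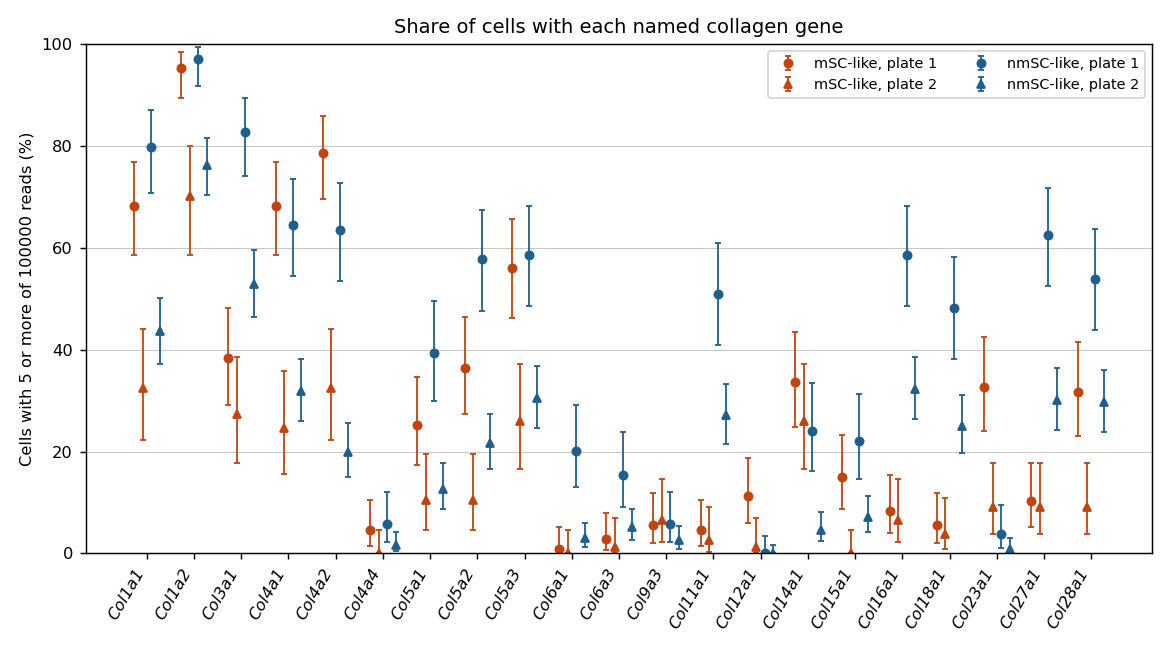
Share of cells with 5 or more reads of each named collagen gene after thinning to 100000 reads, with exact binomial 95% intervals; red is mSC-like, blue nmSC-like, circles plate 1 and triangles plate 2. Col1a2 reaches 95.3% and 97.1% of cells in plate 1 and 70.1% and 76.3% in plate 2. For Col3a1, Col11a1, Col16a1, Col18a1, Col23a1 and Col27a1, among others, the intervals of the classes lie apart within each plate. The intervals count cells from 1 pool of mice per plate and are not a test between the classes.

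Single cells showed how the chains went together. Across the 104 thinned nmSC-like cells of plate 1, Spearman's rho of Col1a1 with Col1a2 was 0.579, and across the 107 mSC-like cells it was 0.522. In plate 2 the values were 0.0879 over 236 cells and 0.444 over 77 cells. Within the mSC-like cells of plate 1, Col23a1 went with Col4a1 at 0.531 and with Col24a1 at 0.529. These are descriptions, since cells of a plate share a library pool and a range of depth. Col4a1 and Col4a2 had a rho of 0.318 in mSC-like and 0.246 in nmSC-like cells of plate 1, and of 0.152 in the mSC-like cells of plate 2.

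The 14 Mki67+ Top2a+ cells, all of plate 1, held the main collagens of the nmSC-like class. With 1 plate no comparison of these cells could be tested, and their median depth of 306642 reads was above the 145867 of the nmSC-like cells of that plate. Of the 44 genes 20 reached 10 CPM in their sum. Col1a2 was in all 14 cells, from 201 to 4271 CPM with a median of 1716, and in the sum it was at 1974 CPM beside 1622 CPM in the nmSC-like cells of the same plate. Col3a1 ran from 316 to 5318 CPM with a median of 1409, and Col1a1 from 134 to 1781 CPM with a median of 742. No cell lacked any of these 3 chains. In the sum Col3a1 was at 1771 CPM and Col1a1 at 863 CPM. The 34 other cells of cluster 3 in plate 1 held 2099 CPM of Col1a2, 1563 CPM of Col3a1 and 737 CPM of Col1a1.

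Of the 3 genes that differed between the classes, Col11a1 was at 232 CPM in these cells, with 5 or more reads in 9 of 14, and Col16a1 at 80.0 CPM, with 5 or more reads in 6 of 14. Col23a1 had 2 reads in all, or 0.418 CPM, below the 0.627 CPM that 3 reads would give. Col6a1 was at 88.2 CPM in the sum, ranged from 0 to 264 CPM and had a median of 28.7 CPM. Col27a1 was at 84.2 CPM, of which 79.2% came from 1 cell, beside 249 CPM in the nmSC-like cells. In the 34 other cells of cluster 3 in plate 1, Col11a1 was at 63.8, Col16a1 at 108, Col6a1 at 86.4 and Col27a1 at 196 CPM. Dcn, a fibroblast marker, was at 64.4 CPM in the Mki67+ Top2a+ cells. It was at 42.9 CPM in nmSC-like cells of plate 1 and at 66.4 CPM in the other cells of cluster 3 there. The part of Dcn-bearing cells in the collagen levels was not tested. Pdgfra had no read in the Mki67+ Top2a+ cells.

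**Figure D5:**
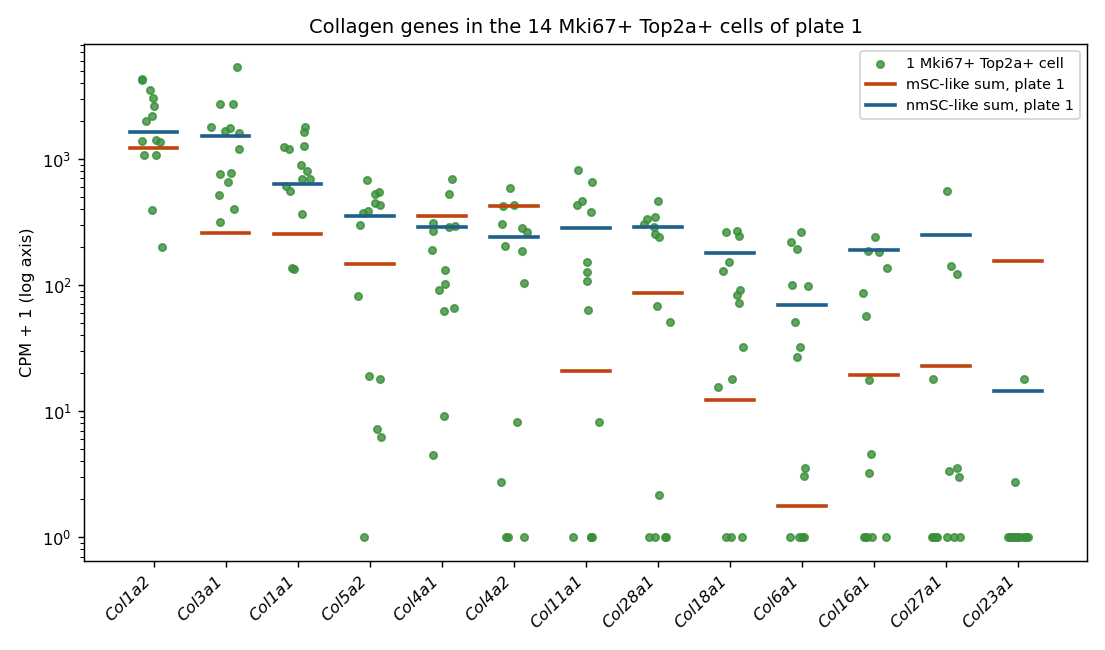
CPM + 1 on a log axis of 13 collagen genes in each of the 14 Mki67+ Top2a+ cells of plate 1 (green points), with the level of the summed mSC-like (red line) and nmSC-like cells (blue line) of that plate. Col1a2, Col3a1 and Col1a1 are above 0 in all 14 cells, and Col23a1 is above 0 in 2 of them.

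Genes that make, join, bind and break down collagen were taken from 4 lists. Their class CPM and ratios are from the split classes, so they do not come from the same cells as the collagen values. Values by cluster are from the main clusters. Of 20 tested genes for modification and folding none passed edgeR's test, 4 had an unadjusted p under 0.05, and DESeq2 called 4, where over all genes these limits took 11.9% and 12%. The highest of this list by mean CPM were P4hb, a subunit of prolyl hydroxylase, at 203 and 454 CPM in mSC-like and 311 and 509 CPM in nmSC-like cells, and Ppib, a folding enzyme, at 342 and 230 CPM against 599 and 611 CPM. Of 11 tested genes for cleavage and crosslinking 1 passed, higher in mSC-like cells, 5 had an unadjusted p under 0.05, and DESeq2 called 5. That was Lox, which crosslinks collagen, at 184 and 13.4 CPM in mSC-like and 1.14 and 0 CPM in nmSC-like cells (log2 ratio 8.85 ± 1.36, adjusted p = 0.0429). Lox was read in cluster 2, at 344 and 52.3 CPM, and at or below 0.646 CPM in cluster 1.

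Of 7 tested collagen receptor genes none passed edgeR's test, 2 had an unadjusted p under 0.05, and DESeq2 called 1, against the same 11.9% and 12% over all genes. The highest by mean CPM were Itgb1, the beta chain of the collagen-binding integrins, at 204 and 57.5 CPM in mSC-like and 361 and 188 CPM in nmSC-like cells, and Itga1, an alpha chain that served to name the classes and was not tested. Itga2, another alpha chain, was chosen after its values were seen, at 2.68 and 8.09 CPM against 142 and 99.0 CPM (adjusted p = 0.0539). Of 7 tested genes for breakdown 1 passed, 5 had an unadjusted p under 0.05, and DESeq2 called 6. Mmp2, a gelatinase, was at 4.83 and 6.07 CPM in mSC-like and 90.4 and 113 CPM in nmSC-like cells (log2 ratio -4.05 ± 0.565, edgeR adjusted p = 0.0334). The median log2 ratios of the 4 lists were -0.50, -0.01, -1.09 and -1.42 in this order, against -0.06 over all genes.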

How the data were processed

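The authors deposited 1 table of raw counts per gene and cell for 768 cells. The submitters' processing notes name STAR 2.6.1c, featureCounts and GRCm38.p5, the study's methods a human build, and the strand setting is not given in the sources used here. Symbols came from GENCODE M21 (GRCm38). Clustering used Seurat 5.3.0 on cells with 1500 or more genes, with plates integrated over 12 dimensions at a resolution of 0.5, and a cluster needed 3 or more markers at 50 CPM. Clusters were built without the collagen genes, and every other gene was tested in classes built without it, from the other part of a random split of the genes. The 4 sums (class by plate) were fitted by edgeR 4.0.16 (quasi-likelihood, TMM, filterByExpr with a minimum count of 10) with the plate as a block, which leaves 1 residual degree of freedom and relies on the spread moderated over all genes. DESeq2 1.42.0 was an alternative. 1 marker list is not reported here. The scripts were tested on simulated data. Ratios within a plate used a pseudocount of 1 CPM. Each plate is 1 pool of mice, so p-values rest on 2 pools. Genes named were those that passed or reached 10 CPM in both plates of a class or in the Mki67+ Top2a+ cells, and of each list those that passed or else the 2 highest. The members, lists and tests were chosen with earlier results of these data known.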

Additional observations from a re-analysis of the deposited data

Results flagged for a closer look

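For 3 named genes the class ratio (log2, mSC-like over nmSC-like) had opposite signs in the plates, and the difference was not tested. Col1a2 was at -0.40 in plate 1 and 0.22 in plate 2. Col4a1 was at 0.28 in plate 1 and -0.55 in plate 2. Col9a3 was at -0.15 in plate 1 and 2.10 in plate 2.

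Collagen reads also appeared in the cells outside every comparison, those under 1500 detected genes. They made up 0.361% of the reads of 44 such cells in plate 1 and 0.330% of the reads of 50 in plate 2, where 3 reads would be 0.00285% and 0.00029%. Col1a2, Col3a1 and Col1a1 led in both.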

How the results depend on the processing

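The number of collagen genes that passed was 3 with 232 of all genes. It was 3 again with 209 of all genes after well-exchanged reads were subtracted, in plate 1 only and at an assumed rate of 0.05%. It was 5 and 443 with cells of 1000 or more genes, 6 and 278 with 2500 or more, 4 and 347 without integration, 9 and 490 with classes from marker scores, 17 and 1588 by DESeq2, 5 and 210 with DESeq2 size factors, 8 and 363 without the filter on low counts, 10 and 455 with cells thinned before summing, 9 and 573 without the top cell of each gene, 8 and 454 without cells with markers of other types, and 8 and 413 with cycling cells kept in the classes. Without the replicate block it was 1 and 88. Col11a1 was among those that passed in all 13 alternatives, Col16a1 and Col23a1 in 11 each.

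Some log2 ratios changed sign. Col1a2 went from 0.05 to -0.15 with 2500 genes, -0.24 without integration, -0.11 with marker scores, -0.020 without the replicate block, -0.15 with thinned cells and -0.021 without cells with other markers. Col4a1 went from 0.01 to -0.18 with 1000 genes, -0.11 with thinned cells and -0.25 without cells with other markers. Col5a3 went from -0.22 to 0.29 without integration and 0.11 with thinned cells. With 1000 genes Col6a1 was at 0.25 and Col15a1 at 0.068, and without integration Col12a1 was at -0.57. With 1 plate left out, Col1a2 ranged from -0.40 to 0.22, Col4a1 from -0.55 to 0.28 and Col9a3 from -0.15 to 2.10. The cause of these changes was not tested. In Mki67+ Top2a+ cells the collagen share of reads was 0.655%, 0.565% with a minimum of 1 read of both genes and 0.634% with 10. The mean shares of cells moved by less than the SD over the 2 plates under every alternative run for Col11a1 and Col16a1 in nmSC-like and for Col23a1 in mSC-like cells. That measure is weak, since leaving out 1 of 2 plates must pass it and the SD is wide where the plates differ. Col11a1 was in 51.0% and 27.1% of nmSC-like cells, and in 69.2% and 39.0% with a minimum of 1 read. In the opposite class the shares were not held to that measure. With a minimum of 1 read they were 25.2% and 7.79% for Col11a1, 22.4% and 9.09% for Col16a1 and 17.3% and 0.847% for Col23a1.

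The limits are 2 plates of different depth, 14 Mki67+ Top2a+ cells from 1 plate, rebuilt classes, and reads that for several genes came largely from 1 cell.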

Other observations

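The less abundant structural groups of collagen were also unevenly spread. Multiplexins (Col15a1 and Col18a1) made up 1.00% and 1.36% of collagen reads in the mSC-like cells of plates 1 and 2 and 3.33% and 5.22% in nmSC-like cells. Type VI chains made up 0.239% and 0.644% against 2.06% and 1.70%, and transmembrane collagens, nearly all Col23a1, 4.13% and 2.99% against 0.205% and 0.124%. By cluster, collagen took 0.664% and 0.302% of all reads in cluster 0, 0.618% and 0.449% in cluster 3, 0.328% and 0.202% in cluster 1 and 0.407% and 0.316% in cluster 2. Tll1, which codes for a procollagen-cleaving protease and was chosen after its values were seen, was at 84.3 and 79.7 CPM in cluster 2 and at 1.61 and 0.0226 CPM in cluster 1, while Col23a1 was at 270 and 264 CPM and at 16.7 and 0.476 CPM in the same clusters. These are values with no test.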
